A study of Homo sapiens with 24 samples.

Results

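Chromosome 1 was described along both arms in the open chromatin peak lists of 24 libraries. Its members were all peaks whose chromosome was 1 in hg19, split at position 125000000 into the short arm, 1p, and the long arm, 1q, and assigned by their summits to 2-Mb bins. The lists held 483540 such peaks of 4683186 in all (10.3%), with 246617 on 1p and 236923 on 1q. The chromosome was chosen by the contrast of the resistant with the parental subline in share of peaks, pileup and local background. Those subline differences are therefore given as a description, with no test. The treatments and the arms were not used in the choice, and comparisons of them were tested.

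The libraries came from LNCaP, an androgen-sensitive human prostate cancer cell line, and from RES-A, a subline of it grown resistant to the androgen receptor antagonist enzalutamide (ENZ) by long exposure. Before treatment both spent 3 days in 5% serum stripped of androgens with charcoal, with 10 µM ENZ added for RES-A and not for LNCaP. Each subline then received vehicle (DMSO), 10 nM of the androgen dihydrotestosterone (DHT), 10 µM ENZ, or DHT and ENZ together for 18 h, which made 8 groups of 3 biological replicates. RES-A is 1 derived line, and its vehicle and DHT libraries also come from cells that had ENZ before. The deposited lists held between 73254 and 275774 peaks per library, with a median of 197296. The genome-wide background recovered from each list, a measure of depth, lay between 0.406 and 5.99 reads per base. LNCaP DHT replicate 1 and LNCaP ENZ replicate 1 had values under 1 and the shortest lists. No annotation of the build was used here, so the regions carry no gene names and the cell lines were not checked against marker genes.

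FAIRE-seq, which works through formaldehyde crosslinking, recovers DNA that is not held by nucleosomes so its peaks lie mostly at active promoters and enhancers. Each peak has a pileup, the number of reads stacked at its summit, and a fold enrichment, that pileup over the number of reads the surroundings predict. The local background was recovered from both. It is the larger of the genome-wide background and the read density in a window around the peak, so it cannot fall below the genome-wide value. Chromosome 1 is the longest human chromosome, and a large block of satellite heterochromatin next to its centromere lies on the long arm. Around the centromere the peak lists had a gap of 21.1 Mb, from a summit at 121485279 on 1p to one at 142535618 on 1q, while no other gap between summits on the chromosome was longer than 179 kb. The arm boundary fell inside the gap, so no peak lay close to it.

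The peak at the edge of that gap, chr1:121483998-121485499 in LNCaP ENZ replicate 1, had the highest pileup of the chromosome in all 24 libraries. Its pileup was 291 to 380 reads per library, although the median pileup on chromosome 1 ranged from 7 to 30 reads. Its fold enrichment was 4.96 to 8.57. Its lowest pileup was in the shallowest library, LNCaP ENZ replicate 1, where the median pileup was 7 and the fold enrichment of this peak was highest. The first peak past the gap, chr1:142535486-142535649, was a weak one with a pileup of 21 reads and a fold enrichment of 2.91 in RES-A DMSO replicate 2. In the bins on either side of the split, given once as the values nearest to it, the libraries of the sublines overlapped. From 120 to 122 Mb the share of peaks was 0.0891% ± 0.007 (SD, n = 12) in LNCaP and 0.0922% ± 0.0033 (SD, n = 12) in RES-A. From 142 to 144 Mb it was 0.0814% ± 0.011 in LNCaP and 0.0669% ± 0.0082 in RES-A. The ratio of RES-A to LNCaP was 1.03 in the 1p bin and 0.822 in the 1q bin.

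Both arms held a larger share of the peaks in RES-A than in LNCaP. Chromosome 1 as a whole took 9.35% ± 0.0883 (SD, n = 12) of the peaks in LNCaP and 11.3% ± 0.412 (SD, n = 12) in RES-A, a difference of 1.93 percentage points. On 1p the share was 4.62% at the lowest, 4.69% at the median and 4.87% at the highest of the LNCaP libraries. In RES-A these values were 5.66%, 5.79% and 6.10%. The difference of 1.11 points corresponds to a ratio of 1.24. On 1q the LNCaP libraries lay at 4.53%, 4.60% and 4.81% and the RES-A libraries at 5.11%, 5.40% and 6.02%. The difference of 0.812 points corresponds to a ratio of 1.18. The sublines did not overlap on either arm, in all libraries together and within each of the 4 treatments. By treatment the 1p difference was 1.06 to 1.19 points and the 1q difference 0.575 points with DHT to 0.960 points with vehicle. When the 50000 top-ranked peaks per library were used, the differences were 1.37 points on 1p and 0.963 points on 1q.

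**Figure D1:**
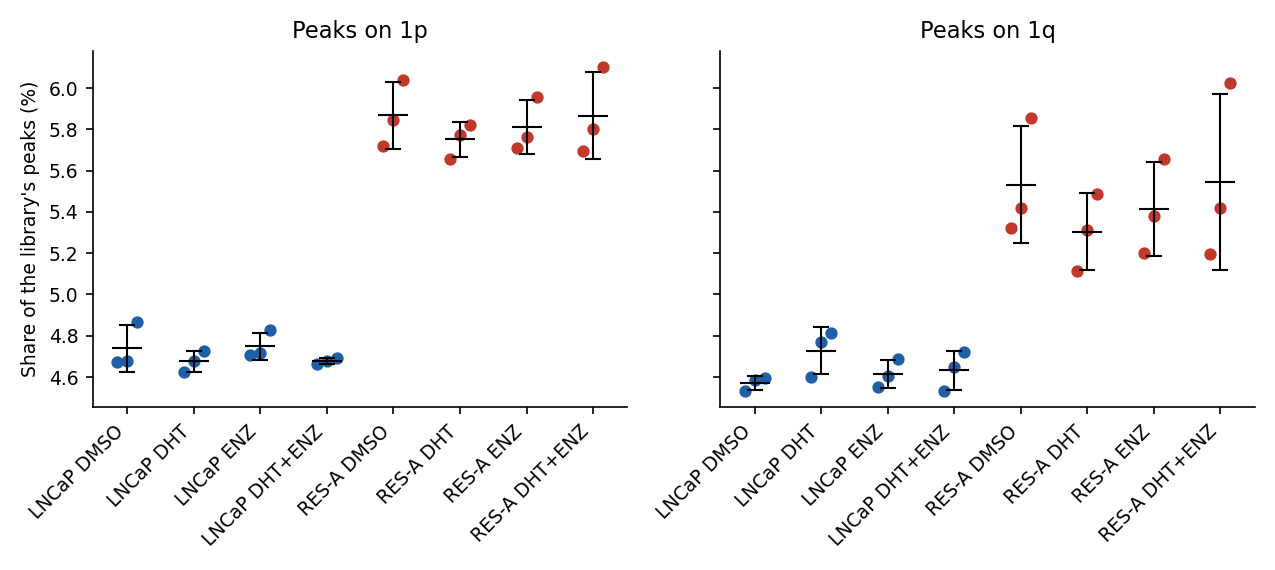
Share of each library's peaks (%) on the short arm (left) and the long arm (right) of chromosome 1 by group; points are libraries, bars the mean ± SD of 3 libraries, and the vertical axis does not start at 0. On 1p the LNCaP libraries end at 4.87% and the RES-A libraries begin at 5.66%, and on 1q these values are 4.81% and 5.11%.

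The resistant libraries were the more variable ones on 1q, with an SD of 0.272 points against 0.0926 points in LNCaP, and their spread went with depth. In RES-A the share of peaks rose with the log2 genome-wide background, with Pearson r = 0.75 on 1p (permutation p = 0.0049, n = 12) and r = 0.78 on 1q (permutation p = 0.00191, n = 12). Spearman's rho was 0.80 (permutation p = 0.00308) and 0.88 (permutation p = 3.00e-04). These 4 relations formed a family, and the adjusted p of r was 0.0098 on 1p and 0.00764 on 1q. Without the 2 libraries farthest from the median depth, r was 0.68 and 0.76. Each doubling of the background came with 0.264 points more on 1p and 0.535 points more on 1q. In LNCaP, 1p gave r = -0.68 (permutation p = 0.0194, adjusted 0.0258, rho = -0.75, permutation p = 0.00673, n = 12) and a slope of -0.0386 points per doubling. On 1q LNCaP gave r = 0.55 (permutation p = 0.0575, adjusted 0.0575, rho = 0.73, permutation p = 0.00878, n = 12). Without the 2 farthest libraries the LNCaP values of r were -0.73 and 0.70. Least squares with a common slope on this measure of depth gave a subline difference of 1.14 points on 1p and 0.904 points on 1q. This alternative was chosen after seeing the data. The sublines did not share a slope: the signs were opposite on 1p, and on 1q the LNCaP slope was 0.0412 points per doubling. The fit therefore does not hold depth equal within each subline.

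**Figure D2:**
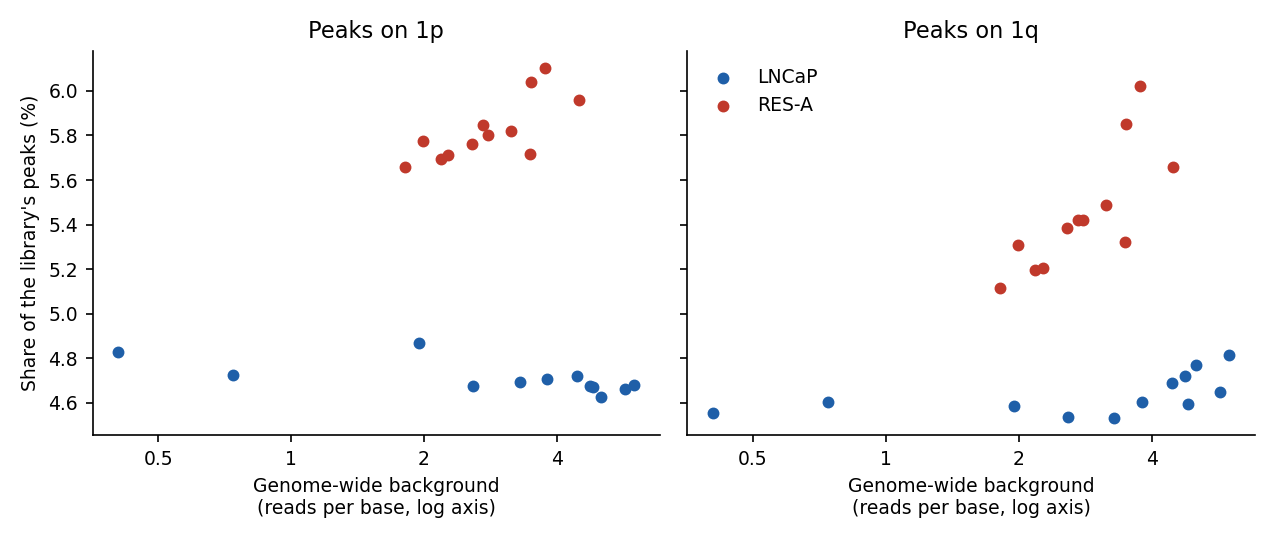
Share of peaks (%) on the short arm (left) and the long arm (right) against the genome-wide background of the library (reads per base, log axis); each point is a library. The RES-A points rise to the right and lie above all LNCaP points at any depth.

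The rise was spread unevenly along the chromosome. Of 115 bins that held at least 20 peaks on average, 97 had a higher mean share in RES-A and 18 a lower one. In 54 bins the 12 libraries of one subline did not overlap those of the other, 51 of them higher and 3 lower in RES-A. Over all 1463 bins of the genome 32.3% of the bins did not overlap, 15.7% higher and 16.6% lower, against 44.3% higher and 2.61% lower on chromosome 1. Because this contrast was used to choose the chromosome, nothing is read from these shares. With bins of 5 Mb, 29 bins did not overlap. On 1p 29 bins were higher and 1 lower, and on 1q 22 were higher and 2 lower. Chromosome 6 had 58 higher and 4 lower bins of 84, and chromosome 21 had 9 higher and 0 lower of 19.

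The 3 largest rises, by difference in mean share, lay towards the end of 1q and in the middle of 1p. From 244 to 246 Mb the share was 0.0464% at the lowest, 0.0514% at the median and 0.0555% at the highest LNCaP library, and 0.0879%, 0.0966% and 0.112% in RES-A. The RES-A mean was 1.92 times the LNCaP mean. From 58 to 60 Mb the LNCaP libraries lay at 0.0559%, 0.0634% and 0.0696% and the RES-A libraries at 0.0984%, 0.105% and 0.113%, a ratio of 1.68. From 228 to 230 Mb they lay at 0.0914%, 0.0979% and 0.105% and at 0.131%, 0.140% and 0.149%, a ratio of 1.43. The difference there was 0.0422 points. The bin from 18 to 20 Mb, nearer the start of 1p, came next at 0.0418 points and a ratio of 2.13. The steepest ratio, singled out after its value was seen, was 2.87 in the sparse bin from 4 to 6 Mb, with a mean of 40.5 peaks per library. There the share was 0.0108% ± 0.0028 in LNCaP and 0.0311% ± 0.0026 in RES-A.

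All 3 falls without overlap lay in 2 stretches. From 188 to 190 Mb the LNCaP libraries lay at 0.0632%, 0.0791% and 0.104% and the RES-A libraries at 0.0306%, 0.0370% and 0.0530%, a ratio of 0.497. The neighbouring bin from 190 to 192 Mb went from 0.0608%, 0.0777% and 0.0936% to 0.0385%, 0.0452% and 0.0585%, a ratio of 0.582. On 1p the bin from 78 to 80 Mb went from 0.0887%, 0.104% and 0.120% to 0.0646%, 0.0709% and 0.0807%, a ratio of 0.688.

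A piecewise-constant fit to the log2 ratio of shares divided the chromosome into 6 segments. From the start of 1p to 26 Mb the mean log2 ratio over the bins was 0.75 ± 0.32 (SD over 13 bins). From 26 to 60 Mb it was 0.44 ± 0.15 (17 bins), and from 60 to 84 Mb it was -0.05 ± 0.29 (12 bins). The fourth segment reached from 84 Mb across the centromere to 186 Mb at 0.21 ± 0.22 (41 bins). From 186 to 198 Mb the log2 ratio was -0.52 ± 0.34 (6 bins), and from 198 to 250 Mb it was 0.37 ± 0.23 (26 bins). No break fell at the arm boundary. In the summed share of the segments the sublines did not overlap in segments 1, 2, 4 and 6, and overlapped in segments 3 and 5. Segment 1 went from 0.757% ± 0.0736 to 1.18% ± 0.0243 of all peaks. Segment 5 went from 0.467% ± 0.0466 to 0.338% ± 0.0308, with libraries at 0.397% to 0.560% in LNCaP and 0.306% to 0.405% in RES-A.

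The bins beside the breaks describe the size of each step. They do not test the breaks, since the fit placed them on these same ratios. At 60 Mb the ratio dropped from 1.68 in the bin before the break to 1.08 in the bin after it. At 186 Mb it dropped from 1.16 to 0.78, and at 198 Mb it rose from 0.911 to 1.15. At 26 Mb it went from 1.64 to 1.47 and at 84 Mb from 0.915 to 1.10. The breaks at 60, 186 and 198 Mb were found in each treatment taken alone. The break near 26 Mb was found with DHT and, at 28 Mb, with DHT and ENZ together, while that near 84 Mb was found, at 86 Mb, with vehicle alone. A further break at 174 Mb was found with ENZ. With a penalty set 2 times as high, 4 segments remained, and the breaks at 26 and 84 Mb were the ones that were lost. Among the 50000 top-ranked peaks 106 bins of chromosome 1 held enough peaks to enter, in place of 115. On these bins the fit gave 5 segments, with breaks at 14, 26, 78 and 84 Mb and none at 60, 186 or 198 Mb. Whether the missing bins had a part in the loss of breaks was not tested. The stretch from 78 to 84 Mb then stood at -0.57 over 3 bins, and the summed share of segment 5 at a log2 ratio of -0.40.

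**Figure D3:**
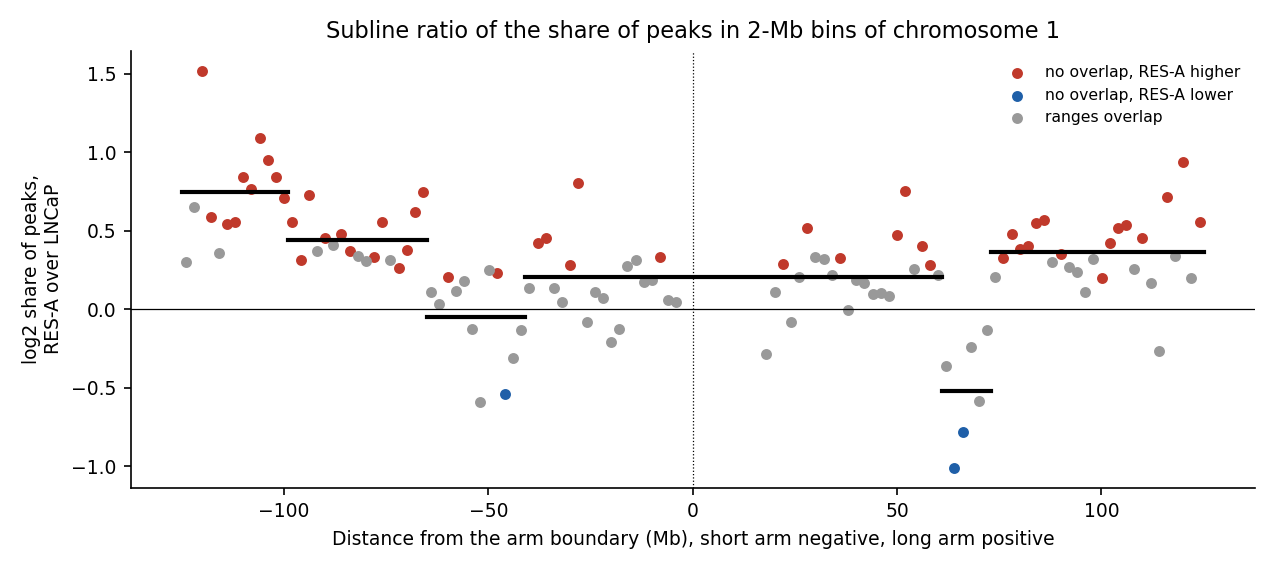
Log2 ratio of the mean share of peaks, RES-A over LNCaP, in each 2-Mb bin (points) against the distance of the bin from the arm boundary (Mb, short arm to the left); black lines are the 6 fitted segments. Of the 115 points 97 lie above 0, and the lines of segment 3 on the short arm, at -0.05, and of segment 5 on the long arm, at -0.52, are the ones below it.

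The share of peaks depends on which sites pass the threshold. Pileup and local background were therefore also compared at the same sites, at 29296 regions that held a peak in all 24 lists, of which 3018 lay on chromosome 1 (1530 on 1p, 1488 on 1q). Values were centred on the median of the other autosomes of each library. On the log2 scale the pileup on 1p was 0.01 ± 0.01 (SD, n = 12) in LNCaP and 0.35 ± 0.02 in RES-A, a ratio of 1.26. On 1q it was 0.10 ± 0.04 in LNCaP and 0.43 ± 0.02 in RES-A, a ratio of 1.25. The local background moved by nearly the same amount. It comes from a window around the peak that may hold the peak's own reads, so it is not independent of the pileup. It went from 0.03 ± 0.01 to 0.37 ± 0.01 on 1p, a ratio of 1.26, and from 0.18 ± 0.01 to 0.56 ± 0.01 on 1q, a ratio of 1.30. The sublines did not overlap in any of these 4 values. The pileup relative to the local background, which is the enrichment of the site, was -0.02 ± 0.01 in LNCaP and -0.05 ± 0.01 in RES-A over chromosome 1, and the libraries overlapped. The local background thus moved with the pileup and the number of peaks, and its part in the number of peaks called was not tested.

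The shift was shared by most sites. The mean log2 pileup was higher in RES-A at 2387 of the 3018 sites (79.1%) and the local background at 2596 (86.0%), against 52.1% and 49.3% of 25719 sites on the other autosomes. Centring each library on those other sites holds them near an even split, so they are no independent comparison. The contrast is also that of the choice, and these counts are a description. Fewer peaks of chromosome 1 lay at the genome-wide background in RES-A, with 18.4% ± 1.64 on 1p and 11.1% ± 1.60 on 1q, than in LNCaP, with 27.9% ± 3.91 and 20.5% ± 3.87. On the other autosomes these shares were 31.7% ± 2.02 in RES-A and 29.2% ± 4.08 in LNCaP. By the same measure chromosome 1 differed by 0.32 in log2 pileup and 0.35 in log2 background, and chromosome 6 by 0.39 and 0.44.

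By segment, the pileup differences at the same sites had the order of the share ratios, while the background difference was larger in segment 6, at 0.46, than in segment 2, at 0.43. In segment 1 the log2 pileup went from -0.10 ± 0.06 to 0.43 ± 0.04 and the log2 background from -0.34 ± 0.08 to 0.19 ± 0.04 over 308 sites. In segment 2 the pileup went from 0.03 ± 0.03 to 0.44 ± 0.04 and the background from -0.08 ± 0.04 to 0.35 ± 0.02 over 524 sites. In segment 3 the pileup went from -0.01 ± 0.07 to 0.09 ± 0.04 over 224 sites, and the sublines overlapped. In segment 4 it went from 0.08 ± 0.03 to 0.35 ± 0.02 over 1160 sites, and the difference was 0.26 on its 1p side and 0.29 on its 1q side. In segment 5 it went from 0.14 ± 0.08 to 0.00 ± 0.08 over 77 sites with overlap, and the background from 0.47 ± 0.09 to 0.36 ± 0.09. In segment 6 the pileup went from 0.10 ± 0.04 to 0.50 ± 0.04 and the background from 0.15 ± 0.02 to 0.61 ± 0.02 over 725 sites. Within LNCaP the local background rose from segment 1 to segment 5, so the parental libraries were not level along the chromosome either.

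**Figure D4:**
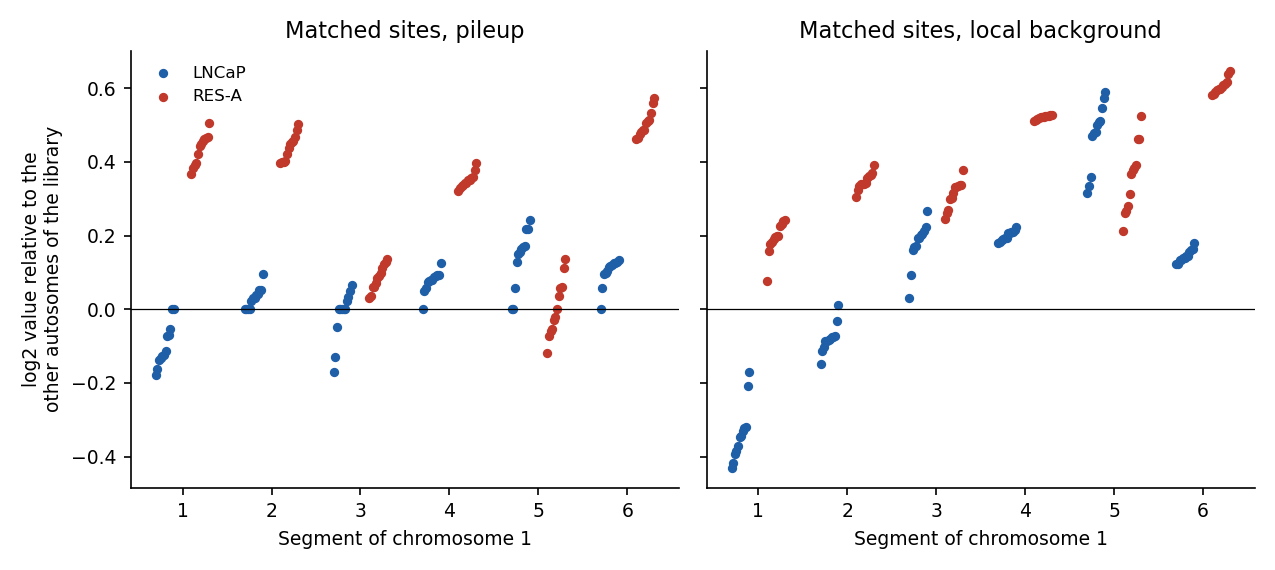
Median log2 pileup (left) and log2 local background (right) at the matched sites of each segment, relative to the other autosomes of the same library; each point is a library, sorted by value within its subline. RES-A lies above LNCaP without overlap in segments 1, 2, 4 and 6, and the sublines overlap in segments 3 and 5.

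The same fit applied to the matched sites drew the steps more finely, with 9 segments in the pileup and 10 in the local background. Both had a stretch from 78 to 84 Mb at a log2 difference of -0.06. Both dropped at 186 Mb, where the pileup difference went from 0.44 to -0.30 (186 to 194 Mb) and the background difference from 0.49 to -0.25 (186 to 192 Mb). Another dip, which the shares did not separate, lay from 236 to 242 Mb, at -0.06 in the pileup and 0.07 in the background, and it rested on 3 bins, with an SD over them of 0.62 and 0.33. Of these only the bin from 238 to 240 Mb lay below 0, at -0.77 and -0.31 over 8 sites. The bins beside it were above 0 in both measures. Upstream of the drop at 186 Mb both measures held a higher level, from 174 Mb in the pileup and from 176 Mb in the background. The first 60 Mb formed 1 segment in the pileup at 0.45, with no step at 26 Mb. Outside the dips the segments ranged from 0.24 to 0.46 in the pileup and from 0.23 to 0.49 in the background. Over the 112 bins with at least 5 matched sites, the log2 ratio of shares followed the pileup difference with r = 0.77 and the background difference with r = 0.78. Pileup and background difference followed each other with r = 0.90. These correlations are a description, since bins share libraries and depth and all 3 measures come from the same reads.

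**Figure D5:**
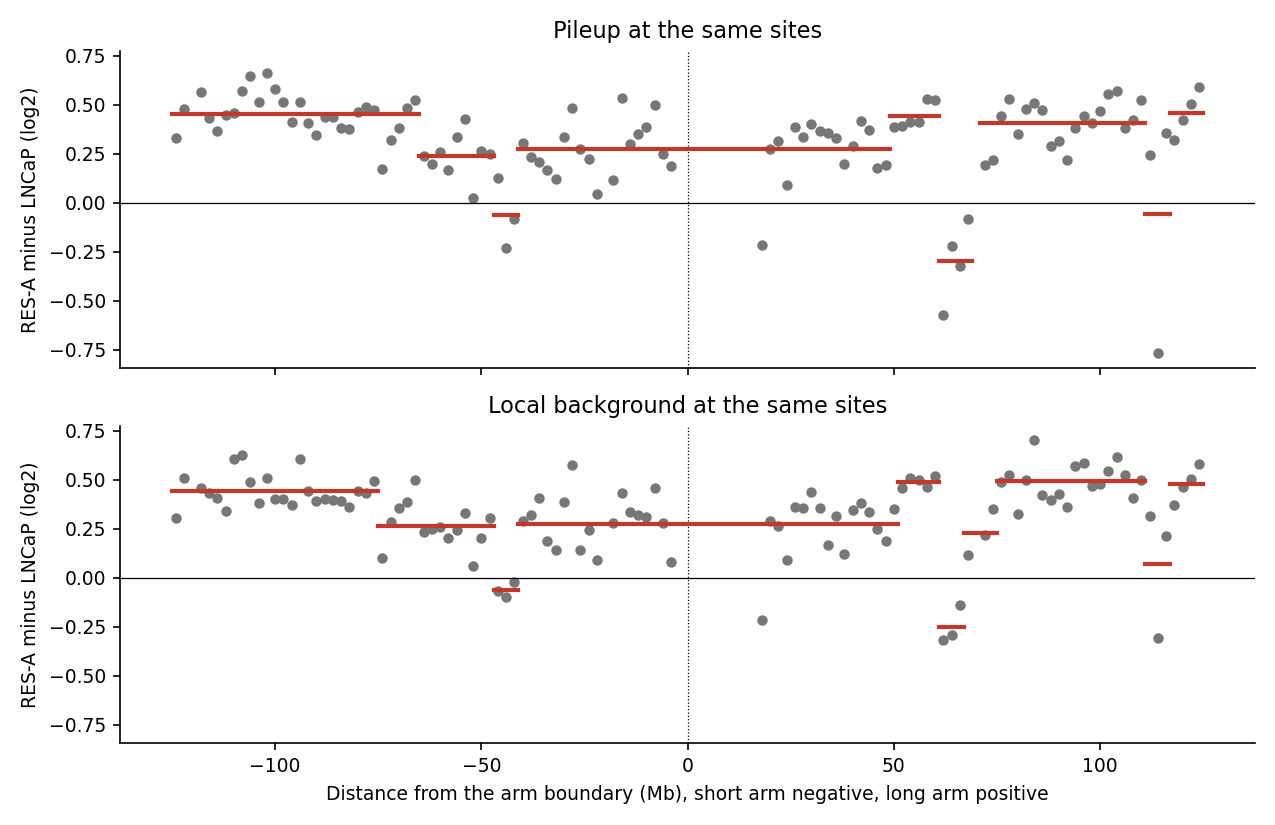
Difference between RES-A and LNCaP in log2 pileup (top) and log2 local background (bottom) at the matched sites of each 2-Mb bin (points, median over sites) against the distance from the arm boundary (Mb); red lines are fitted segments. In both panels a fitted line lies below 0 on the short arm, at -0.06, and on the long arm, at -0.30 (pileup) and -0.25 (background), and a further line near the end of the long arm lies at -0.06 in the pileup and 0.07 in the background.

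Single regions were also counted, by the segments fitted to these same peaks. The 24 lists merged into 81796 regions on chromosome 1, of which 3018 (3.69%) were called in all libraries. In all, 556 regions (0.680%) were called in the 12 RES-A libraries and in no LNCaP library, and 16 (0.0196%) showed the reverse. Over all chromosomes these shares were 0.599% and 0.0398%. A call in all 12 LNCaP libraries includes the 2 shallow lists, of 73254 and 82224 peaks, while the shortest RES-A list held 169514. The 2 directions are therefore not counted at equal depth. Since the contrast is also that of the choice, nothing is read from this. In segment 1, 124 of 5261 regions (2.36%) were called in RES-A alone and 0 in LNCaP alone. In segment 5 these counts were 7 and 7 of 4908.

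On 1p the region chr1:1176217-1176554 had the strongest peak among those called in 12 RES-A and 0 LNCaP libraries, with a pileup of 44 reads at the lowest, 67 at the median and 112 at the highest. Its fold enrichment was 13.0 to 18.9. On 1q this was chr1:204666805-204667419, with a pileup of 40, 94 and 139 reads and a fold enrichment of 11.0 to 17.9. In LNCaP alone the strongest region of 1p was chr1:106075682-106076604, with a pileup of 7, 46.5 and 87 reads and a fold enrichment of 4.66 to 7.91. On 1q it was chr1:191024089-191024866, inside segment 5, with 6, 53.5 and 94 reads and a fold enrichment of 4.19 to 8.93. The regions chosen for RES-A were the more enriched, with no test since both were picked for their extremes. Among regions called in all 24 libraries, chr1:6639759-6640172 had the highest mean enrichment of 1p, with a median pileup of 98.5 reads in LNCaP and 145 in RES-A, and a fold enrichment of 18.8 and 23.1. On 1q this was chr1:151319562-151320183, with a median pileup of 93.5 and 143.5 reads and a fold enrichment of 15.2 and 21.1.

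The arms themselves differed in local background. In LNCaP the median log2 local background was lower on 1p than on 1q by 0.13 ± 0.02 (SD, n = 12), in 12 of 12 libraries. By an exact sign-flip permutation test p was 0.000488 and the adjusted p over 6 tests 0.00146. In RES-A the difference was -0.15 ± 0.02 in 12 of 12 libraries, with the same exact p of 0.000488, the smallest this test can give. The median log2 pileup of the arms did not pass the threshold, at -0.02 ± 0.03 in LNCaP (adjusted p = 0.188, exact sign-flip permutation) and -0.01 ± 0.06 in RES-A (adjusted p = 0.391, exact sign-flip permutation). In LNCaP only 4 of 12 libraries differed between the arms, all lower on 1p, and the rest were tied. The LNCaP pileup test could therefore not give less than its p of 0.125 (exact sign-flip permutation), and no conclusion is drawn from it. Peaks were longer on 1p than on 1q in RES-A, by 6.75 ± 4.29 bp (adjusted p = 0.00195, exact sign-flip permutation), in 11 of 12 libraries. In LNCaP the length difference was 1.46 ± 3.61 bp (adjusted p = 0.253, exact sign-flip permutation). Among the 50000 top-ranked peaks the pileup was lower on 1p in both sublines, by 0.08 in LNCaP and 0.10 in RES-A, and 1p peaks were the shorter ones.

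The treatments were tested next, since DHT or ENZ could move peaks on the chromosome within a subline. In RES-A, which had ENZ before, the ENZ contrast sets ENZ kept against ENZ withdrawn. In LNCaP it sets new ENZ against none, and the pooled ENZ effect averages both. No effect on an arm passed the threshold when all peaks were used. With DHT the share on 1p was lower by 0.0491 points (5.24% against 5.29%, exact stratified permutation p = 0.315) and that on 1q higher by 0.0202 points (exact permutation p = 0.826). With ENZ the share on 1p was higher by 0.0175 points (exact permutation p = 0.725) and that on 1q by 0.0183 points (exact permutation p = 0.849). The adjusted p was 0.849 for all 4. None of the 115 bins passed for either agent, against a background of 0% of 1463 bins. At an unadjusted exact p under 0.05 there were 6 bins for DHT and 3 for ENZ on chromosome 1, and 119 and 45 over the genome. The DHT effect in RES-A minus that in LNCaP was 0.0370 points on 1p (permutation of centred values, p = 0.70) and -0.136 points on 1q (permutation of centred values, p = 0.452).

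Among the 50000 top-ranked peaks of each library, small treatment effects did pass. Peaks were ranked by their own p, and ties at the cut were taken in the order of the list. Whether these effects depend on the ties or on single libraries was not tested. With DHT the share on 1p fell by 0.0685 points (exact permutation p = 0.000475, adjusted 0.0019). Its difference was -0.107 points in LNCaP and -0.030 points in RES-A. The effect differed between the sublines by 0.0770 points (permutation of centred values, p = 0.0053, adjusted 0.0106). With ENZ the share on 1q fell by 0.0543 points (exact permutation p = 0.0132, adjusted 0.0264). By subline this was -0.0293 points in LNCaP and -0.0793 points in RES-A, where ENZ was kept against withdrawn. Of 106 bins 2 passed for DHT, against 3.75% of 1093 bins over the genome, a share no higher than that background. From 218 to 220 Mb the share rose from 0.0837% to 0.0980% (adjusted p = 0.0182, exact permutation), and from 200 to 202 Mb it fell from 0.169% to 0.158% (adjusted p = 0.0406, exact permutation). At the matched sites no arm passed after adjustment over 8 tests without the replicate block, which pairs libraries by number. The nearest were DHT on 1p, with a log2 pileup lower by 0.02, and ENZ on 1q, lower by 0.03 (both adjusted p = 0.0546, exact permutation). With the replicate block the adjusted p was 0.0312 for DHT on 1p, which then passed, and 0.133 for ENZ on 1q (exact permutation).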

How the data were processed

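The authors deposited 1 peak list per library, with the pileup signal, the fold ratio, and the −log10 p and q of each peak, and per the labels made them with BWA 0.7.8-r455, Picard 1.118 and MACS2 2.1.0 on hg19. MACS2 options were not given in the sources used here. The local background was recovered as (pileup + 1) / fold − 1, and its minimum per list was taken as the genome-wide background. All deposited peaks were the denominator of shares. Bins with a mean of at least 20 peaks entered (Python 3 with numpy, pandas and scipy). Regions overlapping by 1 bp were merged. Segments came from least squares with a penalty of 3 log(n) σ² and at least 3 bins. Treatments were tested by exact permutation within strata of subline and other agent (160000 relabellings, 2-sided), arms by exact sign flips, with Benjamini-Hochberg adjustment over all bins or the family and a threshold of 0.05. For the subline difference in the DHT effect, each subline's mean was subtracted and subline labels were permuted within treatments. That test is approximate where the sublines differ in spread. The p-values measure the spread between these libraries. Scripts were tested on simulated data: in a simulation of the DHT test on 1463 bins, 95.0% of bins changed 1.25-fold were called. Smaller changes, of the size seen on the arms, were not simulated, so how often they would be called is not known. Named bins were the 3 largest differences per direction among those without overlap and those beside breaks and the split; named regions were the extremes per arm. The members and lists were chosen with earlier results of these data known.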

Additional observations from a re-analysis of the deposited data

How the results depend on the processing

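Leaving out each library in turn changed neither the number of segments (6 to 6) nor the absence of bins with a treatment effect, and moved the share difference between 1.09 and 1.13 points on 1p and between 0.760 and 0.843 points on 1q. In these fits the DHT effect on 1q ranged from -0.0393 to 0.0638 points, the ENZ effect on 1p from -0.0120 to 0.0390, the ENZ effect on 1q from -0.0412 to 0.0619, and the subline difference in the DHT effect on 1p from -0.0218 to 0.0800; the signs of these 4 values, none of which passed the threshold, turned with single libraries, RES-A DHT+ENZ replicate 3 among them in all 4. Without threshold calls or sign changes, the DHT effect on 1p ranged from -0.0785 to -0.0276 (without RES-A DMSO replicate 2), the subline difference in the DHT effect on 1q from -0.255 to -0.0489 (without RES-A DHT+ENZ replicate 1), and the RES-A arm difference in log2 pileup from -0.0220 to -0.00238 (without RES-A DHT replicate 2), each lowest without RES-A DHT+ENZ replicate 3; the LNCaP arm difference in length ranged from 0.864 (without LNCaP DHT replicate 3) to 2.05 bp. Among the 50000 top-ranked peaks the share difference was 2.33 points on chromosome 1 and 1.37 on 1p, the DHT effect on 1p -0.0685, the ENZ effect on 1q -0.0543, the subline difference in the DHT effect 0.0770 on 1p and 0.0353 on 1q, and 2 bins passed for DHT. With them the arm difference (1p minus 1q) was -0.0809 in LNCaP and -0.104 in RES-A for log2 pileup, and -5.08 bp and -2.25 bp for length. At regions with a top-ranked peak the matched difference was 0.31 for pileup and 0.30 for background on 1p and 0.36 for background on 1q; with regions above the genome-wide background it was 0.36 on 1q. Bins of 5 Mb left 29 bins without overlap, and the matched background gave 10 segments. Matched background in place of share turned the DHT effect to 0.00589 on 1p and to -0.00381 on 1q and the ENZ effect on 1q to -0.00319; with matched pileup the ENZ effect on 1q was -0.0297. The cause of these changes was not tested; the top-ranked settings of the arm and subline differences, the matched measures in place of share and the depth adjustment were chosen after seeing the data.

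Same-numbered libraries did not deviate together in every pair (mean correlation 0.27 in LNCaP, 14 of 18 pairs over 0.1; -0.01 in RES-A, 5 of 18), so the numbers were taken as names. With the replicate block, the DHT effect on 1p had p = 0.361 and on 1q p = 0.803, the ENZ effects p = 0.651 and 0.792 (exact permutation), and no bin passed, while DHT on 1p passed in matched pileup (adjusted p = 0.0312, exact permutation); the share difference stayed at 1.93 points. Of 125 values under settings other than leaving out a library, 103 counted as the same. Tested effects did so by keeping their direction and side of the threshold, and counts by staying within a fixed factor. Other values did so by moving less than an SD. This was the SD of libraries within a subline or, for the segment ratios, the SD over treatments. Depth limits the shares: the 2 shallow LNCaP libraries had fewer reads per base than 1, and share rose with depth in RES-A. With 12 libraries per subline and 1 resistant line, the subline values describe these lines only.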
